A study of Mus musculus with 4 samples.

Results

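XBP1s binding was examined at the genes of the translation initiation factors (eIFs) in mouse natural killer (NK) cells, the innate lymphocytes that kill virus-infected and cancer cells. The members are the intervals of 1 deposited list of XBP1s peaks that its authors placed within 5000 bp of the transcription start site (TSS) of a protein-coding gene named Eif1 to Eif6, selected by gene name and distance and leaving out Eif2a and Eif2ak3. There were 27 such intervals, of 4890 in the list, at 22 genes. XBP1s is the spliced, active form of XBP1, a transcription factor of the unfolded protein response. Chromatin immunoprecipitation and sequencing (ChIP-seq) was done on splenic NK cells that had received IL-15, a cytokine that NK cells depend on, for 1 h at 50 ng/ml. The series' design text describes the mice as Il15TgXbp1f/f and the labels give the strain as C57BL/6. All groups share these mice and this treatment; no Cre, untreated cells, age or sex is given in the sources used here. The libraries are 2 XBP1s immunoprecipitations and 2 inputs, and the input is chromatin kept before precipitation.

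The list combines the libraries and holds no value of any single one, so there is no replicate error, library depth is unknown, and the text below gives no test. The deposited peak score is 0 in each of the 4890 rows. The quantities left are the position of an interval and its width, and width is not a measure of binding strength. Intervals may be whole peaks or only the overlap of several calls, which the sources used here do not settle, so counts that rest on the 3 member intervals under 100 bp (Eif3i, Eif5 and Eif4a1) are also given without them. Counts of genes are set beside the same counts over all protein-coding genes, as a description.

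Initiation factors bring the ribosome, the initiator tRNA and the mRNA together. eIF2 carries the initiator tRNA to the small ribosomal subunit as a complex with GTP, eIF2B recharges eIF2 with GTP, and the eIF2 kinases block that step under stress by phosphorylating the eIF2 alpha subunit. eIF3 is a large scaffold on the small subunit, the eIF4 proteins bind the mRNA cap and unwind the leader, and eIF1, eIF1A, eIF5 and eIF5B act in start codon choice and subunit joining. PERK, the product of Eif2ak3, is the eIF2 kinase of the endoplasmic reticulum (ER), which ties this machinery to the unfolded protein response.

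Of 54 eIF genes in the RefSeq gene table, the 22 with a member interval make up 40.7%, beside 15.9% of all 21900 protein-coding genes with an interval by the same rule. The share was 3 of 5 genes for eIF2, 8 of 14 for eIF3, 6 of 17 for eIF4 with its regulators, and 5 of 10 for eIF1, eIF5 and eIF6 together. By the authors' gene assignment and distance, 0 of 5 eIF2B genes and 0 of the 3 remaining eIF2 kinase genes had an interval within the window; 1 gene of each had one near its RefSeq TSS, described below with its gene. Many of these promoters are rich in CpG dinucleotides, a class in which XBP1s intervals were more frequent: among 8452 protein-coding genes with a CpG-rich promoter entry, 29.0% had an interval, beside 16 of 35 CpG-rich eIF genes (45.7%). Gene expression was not analysed here, and its part in these shares was not tested.

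**Figure D1:**
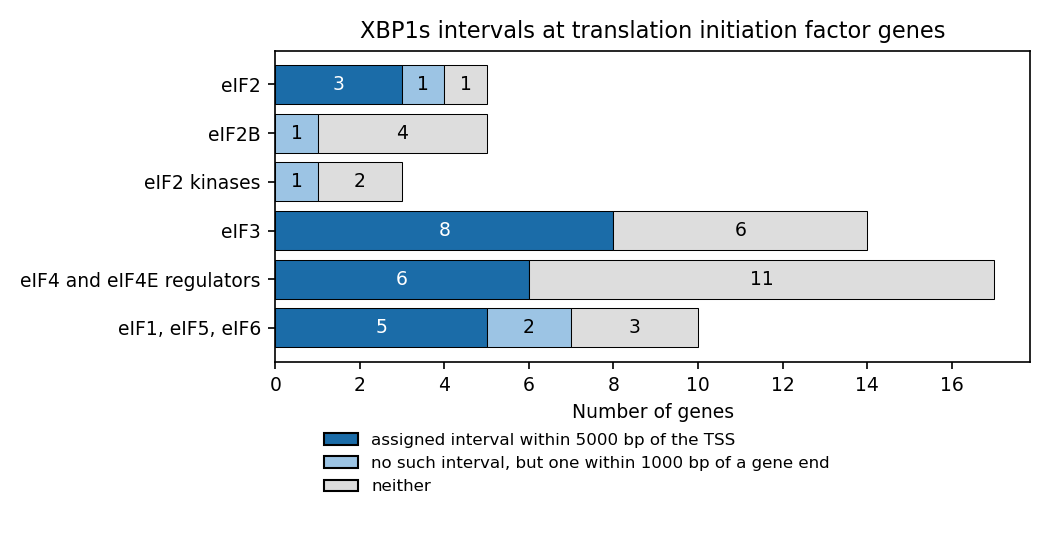
Number of eIF genes (x axis) in each group (y axis) with an assigned XBP1s interval within 5000 bp of the TSS (dark blue), with no such interval but one within 1000 bp of a gene end (light blue), or with neither (grey). eIF3 holds 8 genes with an assigned interval, while the eIF2B genes and the eIF2 kinases hold 0.

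The DNA letters at some start sites are shown as examples, picked after the matches were known. They are from 5 members and 2 genes without an interval. Their promoters hold CCACG or TGACGTGG, letters that XBP1s is known to bind, or CACGTG, which contains ACGTG. Whether XBP1s or another factor binds CACGTG at these genes was not tested. Counts over all promoters searched are given further on. Sequences are from the RefSeq promoter table (build GRCm38.p6), 5′ to 3′ on the strand of the gene, and all lie upstream of the TSS. Capitals mark, on either strand, CCACG (Eif3b and Eif3j1) or CACGTG (Eif4g1, Eif4e and Eif3f); those of Eif3a join GCCACGT with TGACGTGG, and those of Eif1b join CACGTG with GCCACGT. In the first 5 genes the capitals lie inside the interval; Eif3f and Eif1b have no interval.
Eif3a: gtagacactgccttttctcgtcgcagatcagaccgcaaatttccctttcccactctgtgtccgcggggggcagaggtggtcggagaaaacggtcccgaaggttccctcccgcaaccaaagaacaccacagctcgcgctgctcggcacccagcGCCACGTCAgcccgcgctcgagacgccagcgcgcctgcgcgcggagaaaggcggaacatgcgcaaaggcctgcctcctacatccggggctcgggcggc
Eif3b: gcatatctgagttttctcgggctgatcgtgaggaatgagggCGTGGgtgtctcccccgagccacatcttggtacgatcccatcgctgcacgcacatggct
Eif3j1: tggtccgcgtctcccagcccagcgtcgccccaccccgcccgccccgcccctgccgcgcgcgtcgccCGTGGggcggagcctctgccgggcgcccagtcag
Eif4g1: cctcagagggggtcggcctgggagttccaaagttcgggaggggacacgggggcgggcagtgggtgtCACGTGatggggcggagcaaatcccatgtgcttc
Eif4e: aaacggacacgtccgtCACGTGggcaggag
Eif3f: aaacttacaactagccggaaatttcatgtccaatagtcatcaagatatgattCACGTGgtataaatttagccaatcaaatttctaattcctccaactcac
Eif1b: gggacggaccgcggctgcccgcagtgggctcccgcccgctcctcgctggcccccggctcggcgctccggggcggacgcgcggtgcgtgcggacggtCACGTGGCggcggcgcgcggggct
The Eif3a stretch is chr19:60790694-60790943, minus strand, that of Eif3b chr5:140419185-140419284, plus strand, and that of Eif3j1 chr2:122028460-122028559, plus strand. Eif4g1 is shown at chr16:20672607-20672706, plus strand, and Eif4e at chr3:138527188-138527217, plus strand. Eif3f is shown at chr7:108934295-108934394, plus strand, and Eif1b at chr9:120492486-120492605, plus strand.

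The intervals assigned by name to genes of the eIF2 group were narrow. Eif2s2, which encodes the beta subunit, had 1 interval of 239 bp in intron 1 of 8 (chromosome 2, 154892384 to 154892622), which began 284 bp downstream of the TSS. Eif2s3x, the X-linked gene of the gamma subunit, had an interval of 378 bp upstream of the TSS and another of 262 bp in intron 1 of 11. The gap of 353 bp between them holds the TSS itself. Eif2d, which encodes a separate factor that can deliver tRNA to the ribosome, had 1 interval of 291 bp over its TSS. The widest interval of each of the 3 genes fell below the median of 395 bp over all 3805 intervals within 5000 bp of a protein-coding TSS (interquartile range 268 to 602).

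The alpha subunit gene, Eif2s1, the substrate of the eIF2 kinases, had no interval under its own name. An interval of 640 bp assigned to Atp6v1d, a gene of the vacuolar proton pump (chromosome 12, 78861527 to 78862166), covered the RefSeq TSS of Eif2s1 and all 300 bases of its promoter entry. Counted this way, the genes of all the eIF2 subunits except the Y-linked Eif2s3y had an interval within 1000 bp of the TSS. The list has no interval on chromosome Y, and the sources used here do not give the sex of the mice.

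For eIF2B, the gene of the delta subunit, Eif2b4, was in the same position: a 970 bp interval assigned to Snx17, a sorting nexin gene, covered its TSS (chromosome 5, 31192761 to 31193730). That interval is wider than 91.7% of those near a TSS. The other 4 genes, Eif2b1, Eif2b2, Eif2b3 and Eif2b5, had none within 1000 bp of either end, and the nearest interval lay between 17373 bp (Eif2b1) and 112754 bp (Eif2b2) away.

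Among the eIF2 kinases, Eif2ak1, which encodes the heme-regulated kinase HRI, turned on which start site is used. An interval of 292 bp (chromosome 5, 143817471 to 143817762) was given to Eif2ak1 by the authors' annotation at -54246 bp and called intergenic. The RefSeq promoter entry places the TSS of Eif2ak1 at 143817792, and from there the interval's edge is 30 bp upstream and 221 of the entry's 300 bases lie inside it. Eif2ak2, the gene of the antiviral kinase PKR, had none, and the nearest interval lay 53966 bp from a gene end. For Eif2ak4, the gene of the amino acid sensor GCN2, the nearest was 4376 bp away, at the TSS of Srp14. The ER kinase gene Eif2ak3, outside the rule, had an interval within the window. By the authors' distances 1 of the kinases counts when Eif2ak3 is included. The interval near the RefSeq TSS of Eif2ak1 is not in that count.

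As at Eif2s1 and Eif2b4, 2 further eIF genes had an interval within 1000 bp that bears a neighbour's name. One of 811 bp assigned to Banf1 covered the TSS of Eif1ad (chromosome 19, 5366118 to 5366928). One of 189 bp assigned to Txndc9 ended 560 bp from the TSS of Eif5b, the factor of subunit joining. With Eif2ak1, whose interval carries its own name at a distance, 5 of 32 eIF genes without an assigned interval within 5000 bp (15.6%) had one within 1000 bp of a gene end, beside 4.15% of 18417 such protein-coding genes, and in 3 of the 5 it covered the TSS. With either gene end counted for all genes, 27 of 54 eIF genes (50.0%) had an interval, beside 17.0% of all protein-coding genes.

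eIF3 had the most genes with an interval, 8, though no more intervals than eIF4 (8 each). Eif3a, which encodes the largest scaffold subunit, had an interval of 1823 bp (chromosome 19, 60789670 to 60791492), reaching from 799 bp upstream to 1023 bp downstream of the TSS and wider than 99.0% of intervals near a TSS. Eif3d, whose product can itself bind the cap, had one of 1307 bp (chromosome 15, 77970174 to 77971480), centred 3 bp from the TSS. Eif3b, another scaffold gene, had one of 1182 bp that lay mostly upstream, from 951 bp before to 230 bp after the TSS (chromosome 5, 140418355 to 140419536). These 3 were well above the upper quartile of 602 bp.

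The other eIF3 members were ordinary or narrow. Eif3e had an interval of 554 bp annotated to intron 1 of 12. Eif3g had one of 372 bp, Eif3j1 one of 340 bp and Eif3c one of 246 bp. These intervals, that of Eif3e included, each covered the TSS. Eif3i had an interval of 9 bp (chromosome 4, 129600407 to 129600415), among 7 under 10 bp of the 3805. It lies 237 bp downstream of the TSS of Eif3i, and an end of the neighbouring gene Tmem234 is 258 bp from its centre. Eif3i is thus a member through an interval shorter than 1 sequenced read of 100 bp.

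Sorted by architecture, a grouping made after the values had been seen, all 5 genes of the core that eIF3 shares with budding yeast had an interval (Eif3a, Eif3b, Eif3c, Eif3g and Eif3i), or 4 of 5 without the 9 bp interval of Eif3i. Of the 7 genes for subunits outside it, Eif3d and Eif3e had one and 5 did not (Eif3f, Eif3h, Eif3k, Eif3l and Eif3m). Eif3j1, one of 2 genes of the loosely bound j subunit, had an interval and Eif3j2 had none. For the 6 eIF3 genes without one, the nearest interval lay 9088 bp (Eif3k) to 964270 bp (Eif3j2) from a gene end, so none sits under the name of a close neighbour.

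**Figure D2:**
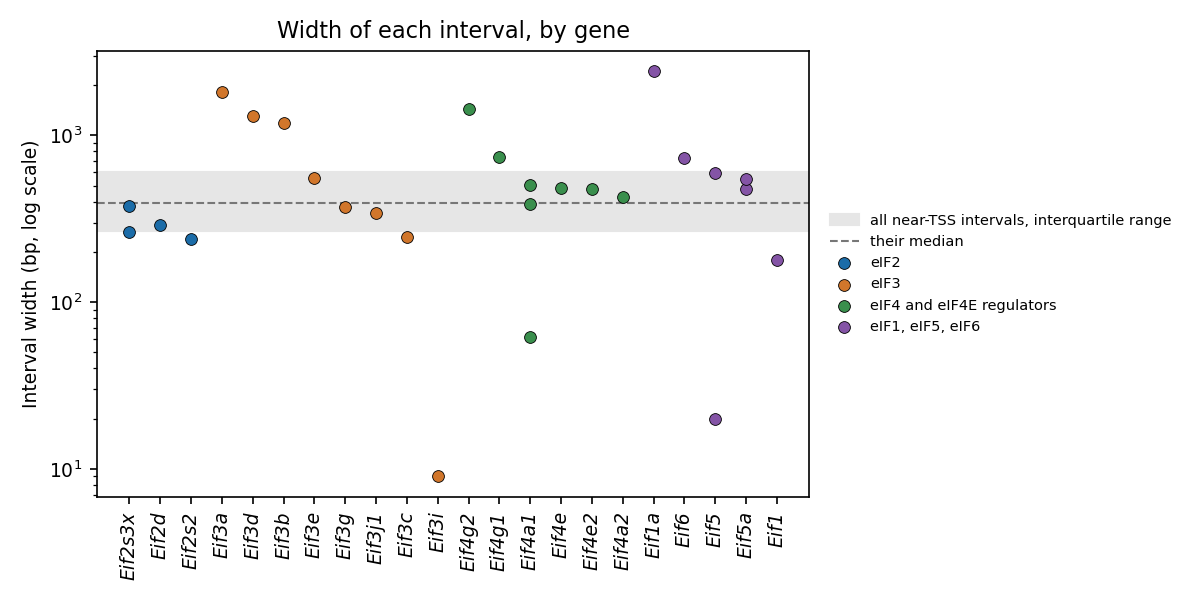
Width in bp (log scale, y axis) of each of the 27 intervals by gene (x axis), with the interquartile range (grey band, 268 to 602 bp) and median (dashed, 395 bp) of the 3805 intervals near a protein-coding TSS. Eif1a, Eif3a, Eif4g2, Eif3d and Eif3b stand above 1000 bp, and single intervals of Eif3i, Eif5 and Eif4a1 fall below 100 bp.

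In the eIF4 group, intervals were found at each type of component of the cap-binding complex eIF4F. Eif4e, the gene of the cap-binding protein, had an interval of 482 bp that ended 28 bp upstream of the TSS used by the authors (chromosome 3, 138526760 to 138527241). The RefSeq gene begins further upstream, at 138526191, and by that start the interval lies inside the gene. Eif4g1, the main scaffold gene, had one of 737 bp, from 61 bp upstream to 675 bp downstream. The helicase genes Eif4a1 and Eif4a2 both had intervals. The one at Eif4a2 was 428 bp wide and centred on the TSS, and Eif4a1 had 3, of 385 bp over the TSS, and of 62 bp (chromosome 11, 69672041 to 69672102) and 505 bp in intron 1 of 10. Of all genes with an interval, 0.861% had 3 or more; without intervals under 100 bp Eif4a1 has 2.

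The widest interval of this group was at Eif4g2, which encodes DAP5, a relative of eIF4G that does not bind eIF4E. It was 1441 bp wide (chromosome 7, 111081972 to 111083412), from 382 bp upstream to 1058 bp downstream of the TSS. Eif4e2, the gene of a cap-binding protein that represses translation, had one of 478 bp annotated to the first exon. It ran from 132 bp upstream to 345 bp downstream of the TSS. The 7 eIF4 genes without an interval were Eif4a3, Eif4a3l1, Eif4b, Eif4e1b, Eif4e3, Eif4g3 and Eif4h. Of the 4 regulators of eIF4E, the inhibitors Eif4ebp1, Eif4ebp2 and Eif4ebp3 and the transporter gene Eif4enif1, 0 had an interval, and the nearest was 13172 bp away (Eif4ebp3).

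The remaining groups held both the widest interval and one of the narrower ones. Eif1a, a gene of eIF1A, which acts in scanning for the start codon, had an interval of 2430 bp (chromosome 18, 46596745 to 46599174), the 7th widest of the 3805. An end of Tmed7, a gene of ER to Golgi transport, lies inside it, 424 bp from the centre, so the interval cannot be given to either gene alone. Eif1, which encodes the partner of eIF1A in scanning, had 1 interval of 179 bp in intron 1 of 3 (chromosome 11, 100320392 to 100320570) that began 443 bp downstream of the TSS. Eif6, whose product keeps the ribosomal subunits apart, had one of 735 bp.

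Eif5, the gene of the GTPase activator of eIF2, had an interval of 597 bp at the promoter and one of 20 bp (chromosome 12, 111538705 to 111538724), 571 bp further into the gene. Eif5a, which encodes a factor now known mainly for elongation, had intervals of 550 and 475 bp separated by 572 bp, and the authors' distances refer them to different start sites of that gene. No interval was assigned to Eif1ax, Eif1b or Eif5a2 or lay within 1000 bp of their ends. The nearest were 4568658, 82086 and 6869 bp away.

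**Figure D3:**
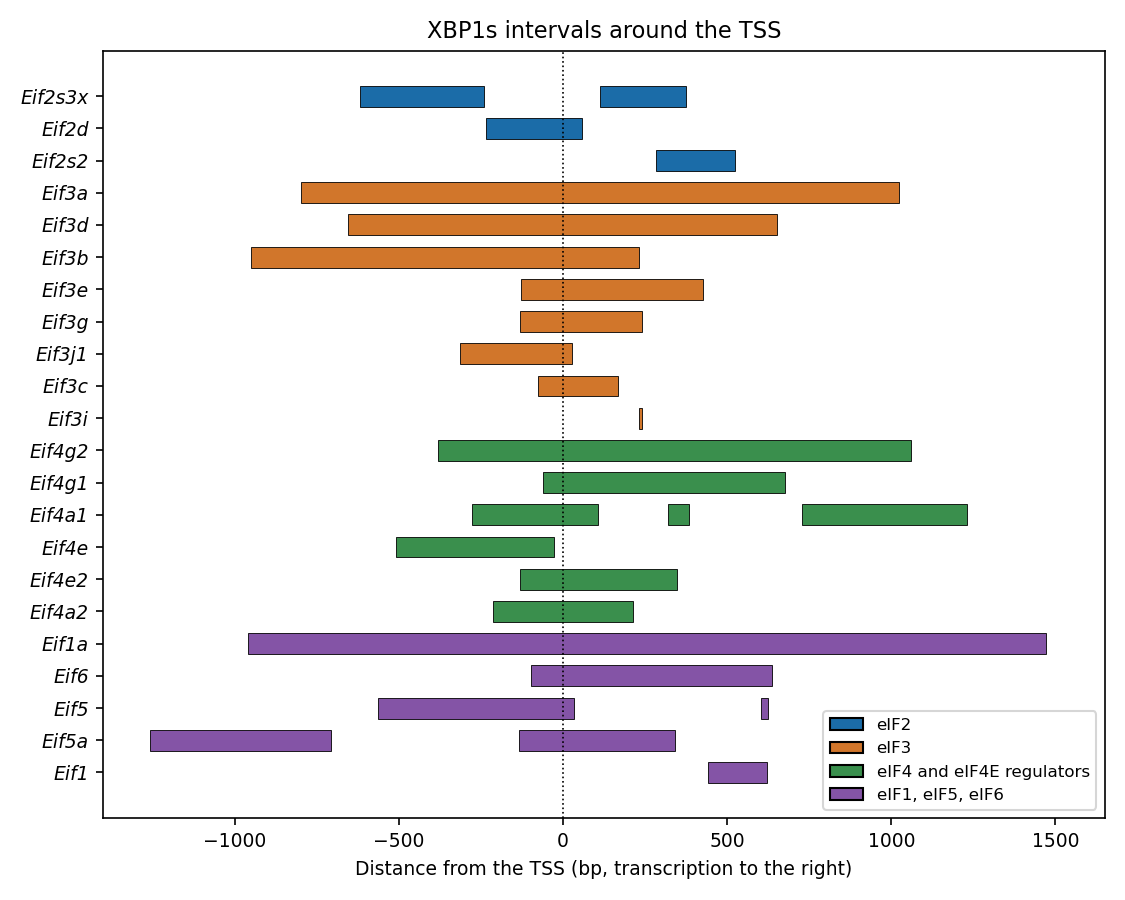
Extent of each interval (bars) relative to the TSS (0, dotted line; x axis in bp, transcription to the right) for the 22 genes (y axis); where the authors used several start sites of a gene, distances are from the one nearest to an interval's centre. Eif3a and Eif1a are covered on both sides of the TSS, and Eif2s3x and Eif4a1 show separate intervals with gaps of 213 to 353 bp.

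The rule admits distances up to 5000 bp. The farthest member centre was 979 bp from a TSS, in Eif4a1, and 91.5% of all 3805 intervals lay within 1000 bp. The nearest intervals outside the window of 5000 bp were 1 of Eif2s3x, at 34720 bp, and that of Eif2ak1 by the authors' distance. The TSS was covered by 18 of the 27 intervals (66.7%, beside 62.7% of all 3805), and 17 of 27 centres were downstream (63.0% beside 60.0%). The authors' annotation placed 14 in promoters, 9 in introns and 4 in 5' untranslated regions. Among the 14, those of Eif1a and Eif3i are centred 255 and 237 bp downstream of the TSS, near an end of Tmed7 and of Tmem234. Whether the promoter label there refers to the eIF gene or to the neighbour was not examined. The intron share was 33.3%, beside 17.3% of all, and 8 of these 9 intron intervals also carry the label of a CpG island, as do 53.8% of all intron intervals near a TSS. The exception was the intron interval of Eif2s3x.

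Taking the widest interval at each of the 22 genes, the median was 493.5 bp (interquartile range 348 to 736.5), beside 411 bp over all 3483 genes with an interval (281 to 625). By group the medians were 291 bp for eIF2, 463 bp for eIF3, 493.5 bp for eIF4 and 597 bp for the rest. The ranges overlap: eIF3 runs from 9 to 1823 bp and the rest from 179 to 2430 bp. The eIF2 genes with an assigned interval run from 239 to 378 bp, below each eIF4 gene (428 to 1441 bp). The 640 bp interval over the TSS of Eif2s1, assigned to Atp6v1d, is not counted here and falls within the eIF4 range. In all, 5 of the 22 genes reached 1000 bp (22.7%, beside 8.13% of all genes with an interval), which is 9.26% of the 54 eIF genes, beside 1.29% of all protein-coding genes. More than 1 interval was found at 4 of the 22 genes (18.2%, beside 8.13%), namely Eif2s3x, Eif4a1, Eif5 and Eif5a. Among intervals of at least 100 bp it was 3 genes, without Eif5, beside 7.48% of genes with such an interval.

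Promoter letters were searched in windows of 300 bases, from 250 before the TSS to the 50 bases that begin with it, for 17 member genes and 25 eIF genes without an assigned interval. Positions below count from 0 at the TSS. These are not sets of bound and unbound windows. Among the 25, the windows of Eif2s1, Eif2b4 and Eif1ad lie wholly inside an interval assigned to a neighbour. For Eif2ak1, 221 of the 300 bases lie inside the interval described above. Among the members, the windows of Eif1 and Eif2s2 hold 0 bases of an interval and that of Eif2s3x holds 9. The XBP1s cores and related letters were common in both. They contain a CpG, and 35 of the 42 eIF genes with a promoter entry had a CpG-rich one. Among all protein-coding genes with an entry that share was 48.3%. The part of base composition in the motif shares here and in the next paragraphs was not tested. CCACG, on either strand, was held by 12 of 17 member windows and 14 of 25 others, beside 37.4% of 21263 windows of protein-coding genes and 53.5% of the windows of genes with an interval. ACGT was held by 13 of 17 and 11 of 25 (33.0% of all windows and 49.5%), and ACGTG, which contains it, by 9 of 17 and 9 of 25 (20.9% and 32.7%). A match lay inside the gene's own member interval in 9 members for CCACG, 9 for ACGT and 5 for ACGTG.

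The longer motifs that contain these letters were held by fewer genes in both sets. TGACGTGG, the letters of the unfolded protein response element, was found in Eif3a alone among the 42 windows, at -97 to -90 and inside its 1823 bp interval, beside 0.705% of all windows and 1.68% of those of genes with an interval. GCCACGT overlaps it there and was also found in the windows of Eif5a and, with no interval, Eif1b. It was held by 2.91% of all windows and 6.51% of those of genes with an interval. CACGTG, which contains ACGTG, was held by 5 of 17 members (Eif3a, Eif4a1, Eif4e, Eif4g1 and Eif5a), and in 4 of these it lay inside the interval. Eif4e held it at -228 and at -64. It was also held by 5 of the 25 others (Eif1b, Eif3f, Eif3k, Eif4h and Eif5a2), beside 7.84% of all windows and 12.5% of those of genes with an interval.

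The full ER stress element, CCAAT followed at its fixed spacing by CCACG, was found in 0 of the 42 windows. Its share was 0.141% of all windows and 0.293% of those of genes with an interval. TGACGTCA, a cyclic AMP response element, was also found in 0 (2.23% and 4.61%). Letters of general promoter factors were found in both sets, with the same shares in brackets. GGGCGG was held by 13 of 17 and 18 of 25 (46.2% and 65.6%). CCAAT was held by 5 of 17 and 10 of 25 (38.2% and 38.9%). CCGGAAGT was held by 3 of 17 and 5 of 25 (5.15% and 11.0%), and AAGATGGC by 3 of 17 and 2 of 25 (3.05% and 5.6%). The palindromic NRF1 site was in 0 of 17 and in Eif3k of the others (1.33% and 2.43%). A match is a description of the letters and not of a bound site.

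Other genes of translation control were read from a list of 44, chosen with earlier results of these data known. An interval was found at 25 of them (56.8%), with a median width of 524 bp. The share was 15.9% over all protein-coding genes and 29.0% over those with a CpG-rich promoter entry. How many of the 44 have a CpG-rich promoter is not given here. Of the 8 genes listed under eIF2 phosphorylation control, 6 had one. One of the 6 is Abcf1 (505 bp), which does not itself set that phosphorylation. The 6 also include both regulatory subunits of the eIF2 phosphatase, Ppp1r15b (985 bp) and Ppp1r15a (487 bp), Dnajc3, the gene of the kinase inhibitor P58IPK (1103 bp), and the phosphatase adaptor gene Nck1 (775 bp). Gcn1 and Impact, the activator and the inhibitor of GCN2, had none, nor did the GCN2 gene itself.

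Elongation factors had an interval in 5 of 8 cases, among them Eef1a1, which delivers tRNA to the ribosome (1536 bp), and Eef1g (1076 bp). Termination factors did in 2 of 3, Etf1 (1310 bp) and Gspt1 (891 bp). The ribosome recycling gene Abce1 had one of 993 bp, and Larp4, which binds poly(A) tails, one of 968 bp. Of the 4 kinase genes that act on the eIF4 group, Mknk2 had one (335 bp), while Mknk1, Rps6kb1 and Rps6kb2 had none assigned to them.

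**Figure D4:**
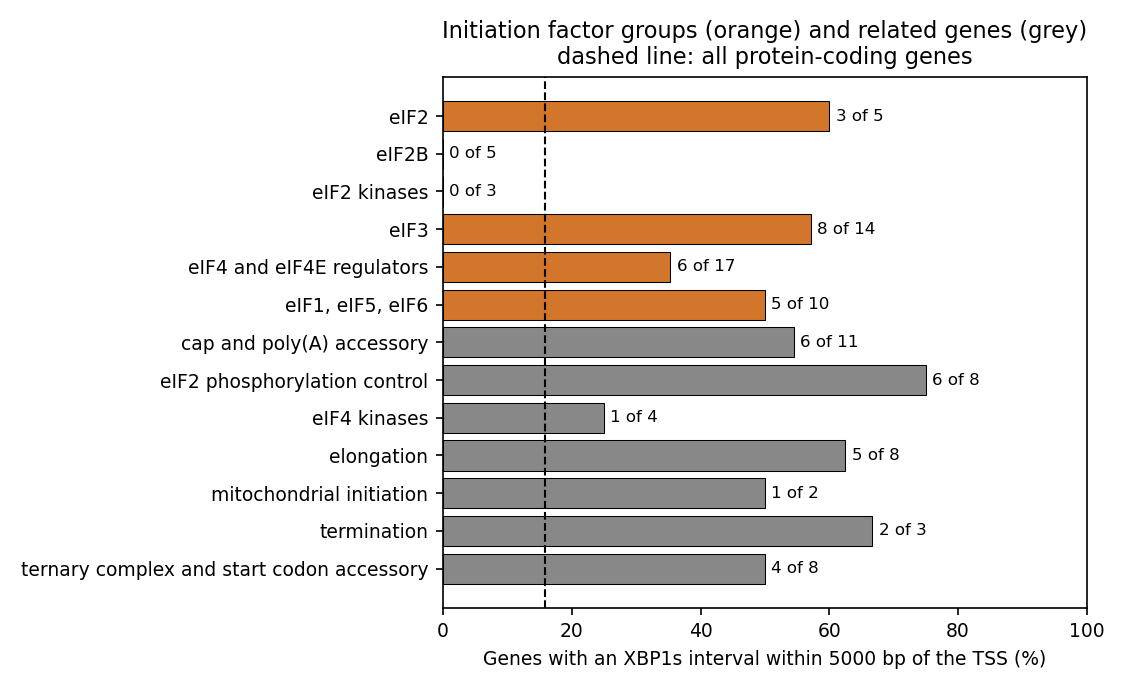
Percentage of genes with an interval within 5000 bp of the TSS (x axis) for each eIF group (orange) and for related genes of translation control by role (grey), with counts beside the bars; the dashed line is the 15.9% of all protein-coding genes. The bars of eIF2B and of the eIF2 kinases without Eif2ak3 are at 0 by the authors' gene assignment and distance. In each, 1 gene had an interval near its RefSeq TSS that is not counted. The bar of the genes listed under eIF2 phosphorylation control, Abcf1 among them, is at 75.0%. The related genes were chosen with earlier results of these data known.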

How the data were processed

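XBP1s ChIP-seq was done on 4 libraries, 2 immunoprecipitations and 2 inputs. Per the file headers, the authors annotated 1 set of intervals with HOMER against mm10. The submitters' processing notes also name MACS2 2.2.7.1, Bowtie2 2.4.5, HOMER 4.11 and 4.11.1, FastQC 0.11.9 and Trim Galore 0.6.7. How calls or libraries were combined is something the sources used here do not give. The deposited score is 0 in every row and was not used. Distances and nearest genes are the authors'; width is end minus start plus 1.

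Genes were matched by Entrez number to RefSeq genes of GRCm38.p6, the assembly of mm10. Promoter entries were found for 42 of the 54 eIF genes, and the one nearest the authors' TSS was used. CpG-rich means an observed to expected CpG ratio of at least 0.6 with at least 50% G and C. Every member and every eIF gene without an interval is named, with the 8 widest related genes; other related genes were named after their values were seen. Members and gene lists were chosen with earlier results of these data known. The searches were tested on simulated data. Scripts ran in Python 3.11.15 with NumPy 2.4.6, pandas 2.3.3 and, for figures, matplotlib 3.10.9; SciPy 1.17.1 gave the rank interval of a median.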

Additional observations from a re-analysis of the deposited data

How the results depend on the processing

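Windows of 1000 bp or any distance, intervals at or above the median width of 373 bp, intervals of at least 200 bp, either gene end, and Eif2a with Eif2ak3 were tried. A background of CpG-rich promoters and a minimum of 100 bp were chosen after seeing the data. Of 63 values recomputed, 57 stayed within 1.5 times the main count or, for the median width, within 340 to 737 bp, its 95% interval by ranks. That interval is taken over the member genes, which are not replicates. It serves as a yardstick of spread between genes and is not an error of the median. The number of eIF genes with an interval ran from 15 of 54 (27.8%, wider intervals, beside 9.02% of all genes) to 27 of 54 (either gene end). Among wider intervals the eIF2 count fell from 3 to 1 and the eIF3 count from 8 to 4. The eIF2 kinase count rose from 0 to 1 at any distance, with either gene end, and with Eif2ak3 included, and the eIF2B count from 0 to 1 with either gene end. With at least 100 bp, Eif3i drops out and eIF3 holds 7. No paired analysis was possible because the list holds no value of a single library; leaving out a replicate was not possible for the same reason, and the depth is unknown.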

Other observations

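Eif2s3x also had an interval far from its start site. It is 699 bp wide (chromosome X, 94177582 to 94178280), 34720 bp downstream of the TSS by the authors' distance and annotated as intergenic. It is wider than both intervals of Eif2s3x near the TSS (378 and 262 bp). No interval assigned to another gene was centred inside any of the 54 eIF gene bodies (0 found).

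Of the 27 eIF genes with neither an assigned interval nor one at a gene end, 22 had the nearest interval more than 10000 bp away, as far as the chromosome holds one. The closest of the others was that of Eif2ak4 at 4376 bp, followed by Eif4h at 5002 bp, where the interval belongs to the TSS of Lat2.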
